A study of Homo sapiens with 12 samples.

Results

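The tight junction genes *CLDN6*, *F11R* and *TJP1* and the desmosome genes *DSG2* and *PERP* were followed across line and day in cerebral organoids (COs). They were taken by gene symbol, and all 5 were among the 10976 genes that had a value in every library. The parent line, WT, is H1, an established embryonic stem cell line of human origin. KO#2 and KO#10 are clones made from it by CRISPR-Cas9 editing of *c-JUN*, so that each edited line is 1 clone of 1 parent line. All lines received the same neural differentiation and CO culture, and the labels name the embryonic stem cells from which the COs came rather than the cells that were in them. Each library held total RNA of 3 or 4 pooled COs, depleted of ribosomal RNA, and there were 2 libraries per line on day 12 and on day 24, which gave 2 WT libraries and 4 libraries labelled KO per day.

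Cells of an epithelial sheet are held together by several junctions. Tight junctions seal the space between neighboring cells near their upper side. Their strands are built from claudins, occludin and JAM proteins, which are tied to the actin skeleton by the ZO scaffold proteins. Desmosomes lie below and act as rivets, in which cadherins of the desmoglein and desmocollin families are linked through plakoglobin, plakophilins and desmoplakin to keratin filaments. During neural induction the neuroepithelium loses occludin-based tight junctions but keeps ZO-1 at its apical adherens junctions.

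*CLDN6* (ENSG00000184697, chromosome 16, 3014712 to 3020071, minus strand) encodes claudin-6, a claudin typical of embryonic and pluripotent cells. *F11R* (ENSG00000158769, chromosome 1, 160995211 to 161021343, minus strand) encodes JAM-A, an adhesion molecule of the immunoglobulin family. *TJP1* (ENSG00000104067, chromosome 15, 29699367 to 29968915, minus strand) encodes ZO-1, the scaffold that also serves adherens junctions. *DSG2* (ENSG00000046604, chromosome 18, 31498177 to 31549008, plus strand) encodes desmoglein-2, the desmosomal cadherin of simple epithelia. *PERP* (ENSG00000112378, chromosome 6, 138088505 to 138107419, minus strand) encodes a membrane protein needed for desmosome assembly, which was first found as a target of p53. The intervals are printed as deposited. They overlap those of the same identifiers in GENCODE release 29 (GRCh38).

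Promoter sequence of 4 of the 5 genes was found in RefSeq (GRCh38.p14), as windows from 250 bases before to 50 bases after an annotated start. *F11R* had none. The windows are shown because the edited gene encodes a DNA-binding subunit of AP-1, and because *CLDN6*, *DSG2* and *PERP* had lower values in the libraries labelled KO whereas *TJP1* hardly differed. Both strands were searched for the AP-1 motif TGANTCA, the CRE motif TGACGTCA, the ZEB and SNAI E-box CAGGTG and the GRHL motif AACCGGTT. The first 2 do not overlap as letters, because the CRE motif has 1 base more at its center. Of 34943 RefSeq windows of this length, 7.72% held the AP-1 motif, 1.84% the CRE motif, 20.6% the E-box and 0.132% the GRHL motif. Capitals below mark the matched motif, and each stretch is on the strand of its gene.
*PERP*, chr6:138107512-138107669, before the first exon, with the AP-1 motif: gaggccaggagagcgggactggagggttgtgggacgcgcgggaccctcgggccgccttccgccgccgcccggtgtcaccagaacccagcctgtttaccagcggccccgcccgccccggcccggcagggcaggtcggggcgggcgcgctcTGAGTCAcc
*CLDN6*, chr16:3018212-3018241, inside an annotated exon, with the CRE motif: cggtggtccagTGACGTCAccgcttcttta
*DSG2*, chr18:31497927-31498042, before the first exon, with the E-box: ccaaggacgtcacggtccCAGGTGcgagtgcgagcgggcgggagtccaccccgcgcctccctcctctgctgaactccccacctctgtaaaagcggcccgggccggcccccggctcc
*TJP1*, chr15:29969050-29969299, before the first exon, with the E-box: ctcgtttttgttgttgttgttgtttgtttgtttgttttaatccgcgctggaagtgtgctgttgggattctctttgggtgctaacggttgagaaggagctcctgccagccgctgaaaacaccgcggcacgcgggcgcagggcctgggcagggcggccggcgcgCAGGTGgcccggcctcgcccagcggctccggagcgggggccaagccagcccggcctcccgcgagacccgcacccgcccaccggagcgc

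The AP-1 motif was found in the window of *PERP* alone, and the CRE motif in that of *CLDN6* alone. The E-box was found in the *CLDN6* window, at 2 places in the *DSG2* window, and in 1 of the 4 windows of *TJP1*, so that genes with and without lower values carried it. No window of the 4 genes held the GRHL motif. These matches describe letters only.

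The values are whole-number scores that the authors normalized, and they are not read counts. Every library had a median score of 17 and a highest score of 5585, so that the depth of the libraries is unknown and scores are compared here between libraries and not between genes. In a bulk sample, fewer cells of a type and less RNA per cell cannot be told apart. *JUN* (ENSG00000177606), the edited gene, scored 4 and 8 in WT, 19 and 18 for KO#2 and 14 and 13 for KO#10 on day 12. On day 24 it scored 13 and 15 in WT, 39 and 39 for KO#2 and 29 and 32 for KO#10. Every library labelled KO was thus above both WT libraries of its day (day 24 log2 fold change 1.25 ± 0.17 SE, adjusted *p* = 0.0184, limma). A gene score does not show where the reads lie relative to an edit, so that it does not check these labels, and each direction given here rests on them. The study also examined the clones by western blot and RT-qPCR, which were not analysed here. One library, KO#10 replicate 1 of day 24, stood apart. The 7 endoderm and yolk sac genes summed to 1185 in it against 33 to 95 in the other 3 libraries labelled KO, and 7 mesenchyme genes to 2908 against 139 to 173. WT of that day summed to 6612 and 6748 and to 2447 and 2074, so that this library was near WT for mesenchyme and the other 3 were low.

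**Figure D1:**
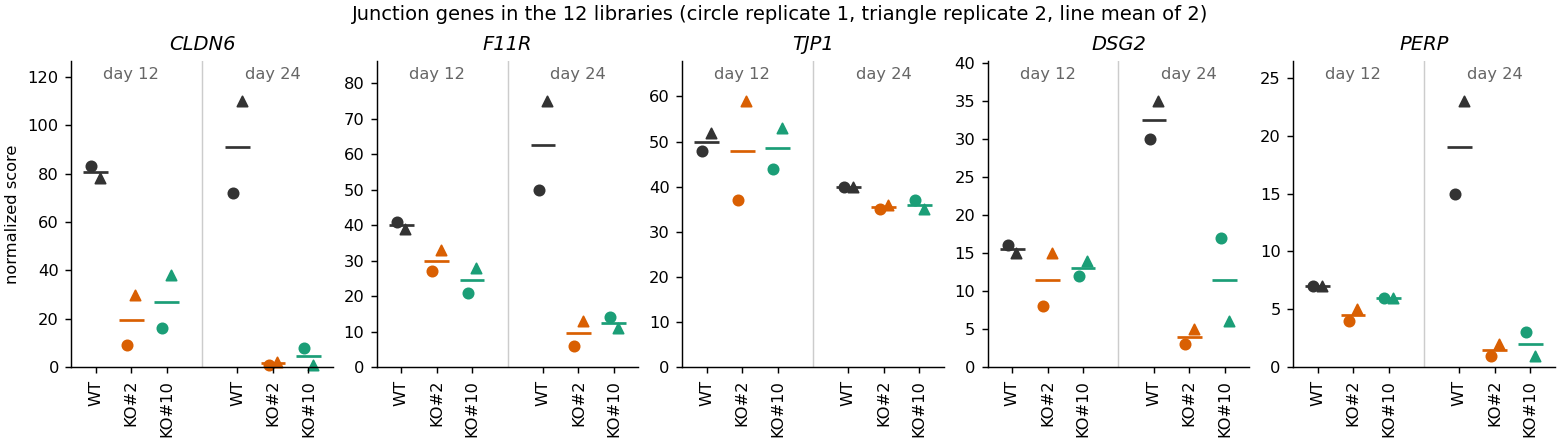
Normalized score (vertical axes, each from 0) of the 5 junction genes in the 12 libraries, by line and day, with circles for replicate 1, triangles for replicate 2 and a line at the mean of the 2. At day 24 both WT libraries lie above all libraries labelled KO for each gene, by a small margin for *TJP1* (40 against 35 to 37) and a wide one for *CLDN6* (72 and 110 against 1 to 8).

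On day 24, *CLDN6*, *F11R*, *DSG2* and *PERP* were lower in the libraries labelled KO than in WT, by 4.50 to 27.9 times on the log2(score + 1) scale, whereas *TJP1* scored almost the same. This comparison asks which junction genes differ between the edited lines and WT at the later day. A gene was called at a Benjamini-Hochberg adjusted *p* under 0.05 and a difference of at least 2-fold, by limma over all genes tested. Of all 9289 genes tested, 3.79% were called lower and 4.22% higher, and 4 of the 5 junction genes were called lower. *CLDN6* and *PERP* passed the filter on low scores only through WT, where alone they reached 10. *DSG2* reached 10 in both WT libraries and in 1 library labelled KO, where the filter needed 2, so that it too was tested only because WT was high.

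Among the tight junction membrane proteins, *CLDN6* scored 72 and 110 in WT, 1 and 2 for KO#2 and 8 and 1 for KO#10. The highest library labelled KO was far below the lower WT library. The log2 fold change was −4.80 ± 0.62 (SE, adjusted *p* = 0.0181, 95% interval −6.26 to −3.34), and at scores this close to 0 the added 1 understates it. *F11R* scored 50 and 75 in WT, 6 and 13 for KO#2 and 14 and 11 for KO#10. Again no library labelled KO came near WT, and the clones overlapped each other. *F11R* differed by −2.43 ± 0.33 (SE, adjusted *p* = 0.0184, 95% interval −3.21 to −1.65).

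The scaffold gene *TJP1* scored 40 and 40 in WT, 35 and 36 for KO#2 and 37 and 35 for KO#10. The groups did not overlap, yet the distance between them was small, and 21.8% of all genes tested had every library labelled KO below WT. On the log2 scale the difference was −0.16 ± 0.11 (SE, adjusted *p* = 0.334). Its 95% interval, −0.42 to 0.11, did not reach a 2-fold difference in either direction.

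Of the desmosome genes, *DSG2* scored 30 and 35 in WT, 3 and 5 for KO#2 and 17 and 6 for KO#10. All 4 libraries labelled KO were below WT, but they spread widely, with KO#10 replicate 1 closest to WT. This gave a log2 fold change of −2.17 ± 0.54 (SE, adjusted *p* = 0.0419, 95% interval −3.44 to −0.90). The call was lost with the replicate number as a block (adjusted *p* = 0.0581). *PERP* scored 15 and 23 in WT, 1 and 2 for KO#2 and 3 and 1 for KO#10. It was near 0 in every library labelled KO. The log2 fold change was −2.90 ± 0.48 (SE, adjusted *p* = 0.0206, 95% interval −4.03 to −1.76).

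Without KO#10 replicate 1, the library that stood apart, all 4 genes were called with larger differences. It had the highest score labelled KO for each of them, so that leaving it out could only enlarge the differences. *CLDN6* then differed by −5.30 (adjusted *p* = 0.00221), *F11R* by −2.56 (0.00695), *DSG2* by −2.60 (0.00454) and *PERP* by −3.10 (0.00496), while *TJP1* differed by −0.17 (0.257). Leaving out either WT library, KO#2 replicate 2 or KO#10 replicate 2 ended all 4 calls, with adjusted *p* of 0.0598 to 0.277 and the directions unchanged, and without KO#2 replicate 1 only that of *DSG2* was lost (0.0745). An exact permutation test of 2 libraries against 4 cannot give a *p* below 0.0667.

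Each clone was also compared with WT by itself at day 24. In KO#2 the same 4 genes were called lower, with log2 fold changes of −5.20 for *CLDN6* (adjusted *p* = 0.0301), −2.65 for *F11R* (0.0301), −2.77 for *DSG2* (0.0353) and −3.0 for *PERP* (0.0375), against 4.26% of all genes tested. For each of the 5, both KO#2 libraries were below WT, as for 32.5% of all genes tested. With the replicate block, *DSG2* (0.0501) and *PERP* (0.0538) were no longer called. Leaving out any 1 of the 2 WT and 2 KO#2 libraries left 0 called. In KO#10, where 0.140% of all genes were called lower, none of the 5 was called, although both KO#10 libraries were below WT for each, as for 26.2% of all genes tested. The differences of KO#10 from WT were −4.41 (adjusted *p* = 0.0866), −2.21 (0.0924), −1.57 (0.14) and −2.79 (0.0959) for the same 4 genes, and −0.15 (0.51) for *TJP1*. Both clones were set against the same WT libraries.

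The clones were then compared with each other, since a call in 1 clone and not in the other does not show that they differ. None of the 5 genes, and none of all 9289 genes tested, was called between KO#10 and KO#2 by limma, while 479 genes had an unadjusted *p* under 0.05. *DSG2* was the only one of the 5 whose clones did not overlap, with 17 and 6 in KO#10 above 3 and 5 in KO#2, as for 14.9% of all genes tested. It differed by 1.20 on the log2 scale (95% interval 0.03 to 2.36, adjusted *p* = 0.825), and by 0.51 without KO#10 replicate 1. For *CLDN6* the 95% interval of the difference ran from −0.97 to 2.55, an interval too wide to tell a large difference from none. That of *TJP1* was narrow (−0.31 to 0.35).

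On day 12 the 5 genes were closer between WT and the libraries labelled KO, and none was called. Only 8 of 8885 genes tested (0.0900%) were called in either direction on that day, with 980 genes at an unadjusted *p* under 0.05. With the replicate number as a block, since the numbers appeared to pair the libraries of that day, 71 genes (0.799%) were called and again none of the 5. *CLDN6* scored 83 and 78 in WT, 9 and 30 for KO#2 and 16 and 38 for KO#10. The groups were well separated, with replicate 2 above replicate 1 in both clones. The log2 fold change was −1.94 ± 0.48 (SE, 95% interval −3.04 to −0.83, adjusted *p* = 0.197), and −1.94 with an adjusted *p* of 0.0534 when the replicate number was a block.

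*F11R* scored 41 and 39 in WT, 27 and 33 for KO#2 and 21 and 28 for KO#10 on day 12. Here too the groups did not overlap, as for 8.34% of all genes tested in that direction. The log2 fold change was −0.55 ± 0.18 (SE, adjusted *p* = 0.306, and 0.125 with the block). *TJP1* scored 48 and 52 in WT, 37 and 59 for KO#2 and 44 and 53 for KO#10. WT lay inside the range of the libraries labelled KO, and the difference was −0.07 ± 0.20 (SE, adjusted *p* = 0.937).

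*DSG2* and *PERP*, the desmosome genes of the 5, scored 16 or less in every library of day 12. *DSG2* scored 16 and 15 in WT, 8 and 15 for KO#2 and 12 and 14 for KO#10, so that the groups touched at 15. Its difference was −0.35 ± 0.24 on the log2 scale (SE, adjusted *p* = 0.664). *PERP* scored 7 and 7 in WT, 4 and 5 for KO#2 and 6 and 6 for KO#10. It was under 10 in every library of that day and so was not tested, and its lines were 1 to 3 score units apart.

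**Figure D2:**
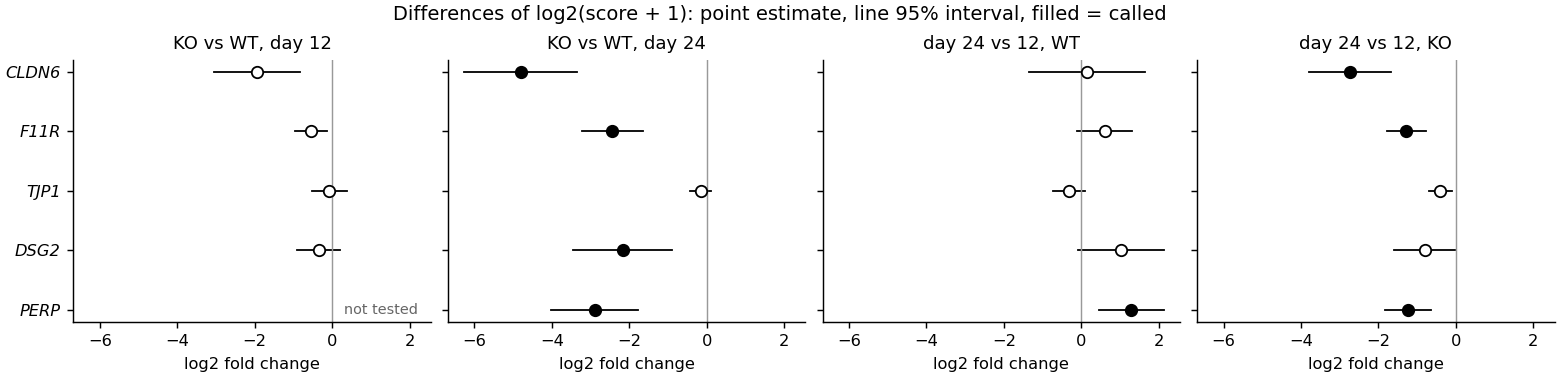
Log2 fold change of log2(score + 1) for the 5 genes (horizontal axes) in 4 comparisons, with points for the limma estimate, lines for its 95% interval and filled points for called genes. *CLDN6*, *F11R* and *PERP* are called lower at day 24 in KO against WT and lower over time in the libraries labelled KO, *DSG2* is called in the first of these only, and *TJP1* is called in none of the 4, with its interval off 0 in the last (−0.69 to −0.11).

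Between day 12 and day 24 the genes took different courses in WT. The question is which junction genes change as the COs mature, and it was asked in 1 fit over all 12 libraries. In WT, *PERP* went from 7 and 7 to 15 and 23, a log2 fold change of 1.29 ± 0.39 (SE, adjusted *p* = 0.0264), and was called, as were 7.17% of all 9952 genes tested in that direction. It reached the filter score of 10 only in the WT libraries of day 24, so that its tests over time and of the interaction depended on that group for being made at all. *DSG2* went from 16 and 15 to 30 and 35 (1.02 ± 0.51 SE, adjusted *p* = 0.149) and *F11R* from 41 and 39 to 50 and 75 (0.60 ± 0.32 SE, adjusted *p* = 0.177). For both the WT libraries of day 24 were above those of day 12, as for 32.1% of all genes tested, yet neither was called. *CLDN6* overlapped between the days in WT (0.14, adjusted *p* = 0.892), and *TJP1* was at 48 and 52 and then 40 and 40 (−0.31, adjusted *p* = 0.226). The call of *PERP* was lost without WT replicate 1 or WT replicate 2 of day 12 (1.29 in each case) or WT replicate 2 of day 24 (1.0). With the replicate block, set for each day, the estimate over time (1.31) compared replicate 1 levels rather than group means, so that it is no check of this call. *DSG2* was called at the same size without KO#10 replicate 1 of day 24 (0.0233).

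In the libraries labelled KO, *CLDN6*, *F11R* and *PERP* were called lower on day 24 than on day 12, against 5.59% of all genes tested. *CLDN6* went from a range of 9 to 38 to one of 1 to 8, without overlap (−2.72 ± 0.49 on the log2 scale, SE, adjusted *p* = 0.00133). *F11R* went from a range of 21 to 33 to one of 6 to 14 (−1.28 ± 0.23 SE, adjusted *p* = 0.00135), and *PERP* from 4 to 6 down to 1 to 3 (−1.23 ± 0.27 SE, adjusted *p* = 0.00435). *PERP* was too low to be tested in these libraries alone, and with a pseudocount of 5 its difference was under 2-fold (−0.61). All 4 later libraries were below all 4 earlier ones for each of these genes, as for 15.6% of all genes tested.

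*DSG2* overlapped between the days in KO, since KO#10 replicate 1 scored 17 on day 24 (−0.80 ± 0.36 SE, adjusted *p* = 0.0962). Without that library it was called (−1.23, adjusted *p* = 0.00188). *TJP1* passed the adjusted *p* but stayed under 2-fold (−0.40 ± 0.13 SE, adjusted *p* = 0.0328), and its range of 37 to 59 on day 12 overlapped that of 35 to 37 on day 24 at 37.

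The difference between KO and WT grew between the days for *F11R* and *PERP* by the test of that change itself. The interaction of line and day was −1.88 ± 0.40 (SE, adjusted *p* = 0.0398) for *F11R* and −2.53 ± 0.47 (SE, adjusted *p* = 0.0328) for *PERP*, where 0.854% of all genes tested were called in this direction. *CLDN6* (−2.87 ± 0.85 SE, adjusted *p* = 0.0906) and *DSG2* (−1.82 ± 0.63 SE, adjusted *p* = 0.128) did not pass, and did so without KO#10 replicate 1 of day 24 (−3.36 with 0.00793, and −2.25 with 0.00485). That library was the highest labelled KO of its day for both genes, so that leaving it out could only enlarge the change. For *TJP1* the change was −0.09 (95% interval −0.59 to 0.42, adjusted *p* = 0.865). Leaving out any of the other libraries but KO#2 replicate 1 and WT replicate 1 of day 24 left 0 of the 5 called.

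Ordered by mean score over the 6 groups of line and day, *CLDN6*, *F11R*, *DSG2* and *PERP* were each highest in WT on day 24, then in WT on day 12, and lowest in KO#2 on day 24. The WT days overlapped for *CLDN6* and not for the other 3. On the same day, the neighboring KO#2 and KO#10 groups overlapped for *CLDN6* and *F11R* on both days. *TJP1* had another order, with the 3 lines on day 12 first, overlapping each other, and the 3 lines on day 24 after them.

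Genes whose scores ran most closely with each of the 5 over the 12 libraries were listed from 9951 genes, by Pearson's *r* of log2(score + 1). The libraries share lines, days and clones, so that these values are a description only. *RAB25*, a small GTPase of epithelial cells, was closest to *PERP* (*r* = 0.977), at 35 and 57 in WT and 2 or 3 in each library labelled KO on day 24. *FERMT2* (0.973), *GRB7* (0.967) and *SMARCD2* (0.965) were closest to *CLDN6*, and *SLC2A3*, which encodes the glucose transporter GLUT3, to *F11R* (0.975), followed by *DESI2* (0.959) and *YES1* (0.957). *RRBP1* (0.978), *BMS1* (0.969) and *FZD6* (0.968) were closest to *DSG2*, and *ZNF761* and *FAM83B* (both 0.964) followed *RAB25*. For *TJP1* they were *RFWD3* (0.939), *PLK4* (0.930), a kinase of centriole duplication, and *BSG* (0.927).

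Other genes of the 2 junctions were taken from 5 lists of 67 genes, of which 32 had values and 31 could be tested at day 24. In the libraries labelled KO, 9 were called lower, 2 higher and 20 were not called, where 3.79% of all genes tested were called lower and 4.22% higher. The median log2 fold change of the list genes was −0.28. That over all genes tested (0.01) is held near 0 by the normalization to 1 shared distribution, so that it is no observed baseline. Of the 9, *CLDN4*, *CLDN7*, *PARD6B* and *PATJ* reached the filter score of 10 only in WT. *JAM2* and *ILDR2*, the 2 called higher, reached it only in the libraries labelled KO. *OCLN*, *DSC2*, *PKP2* and *DSP* reached it in both WT libraries and in 1 library labelled KO, where the filter needed 2. All of these were thus tested only because 1 group was high, and of the calls only *LSR* was not. The count and median are therefore a description. Without KO#10 replicate 1, 12 were called in place of 11. Leaving out either WT library, KO#2 replicate 2 or KO#10 replicate 2 left 0 called, and leaving out KO#2 replicate 1 left 2.

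**Figure D3:**
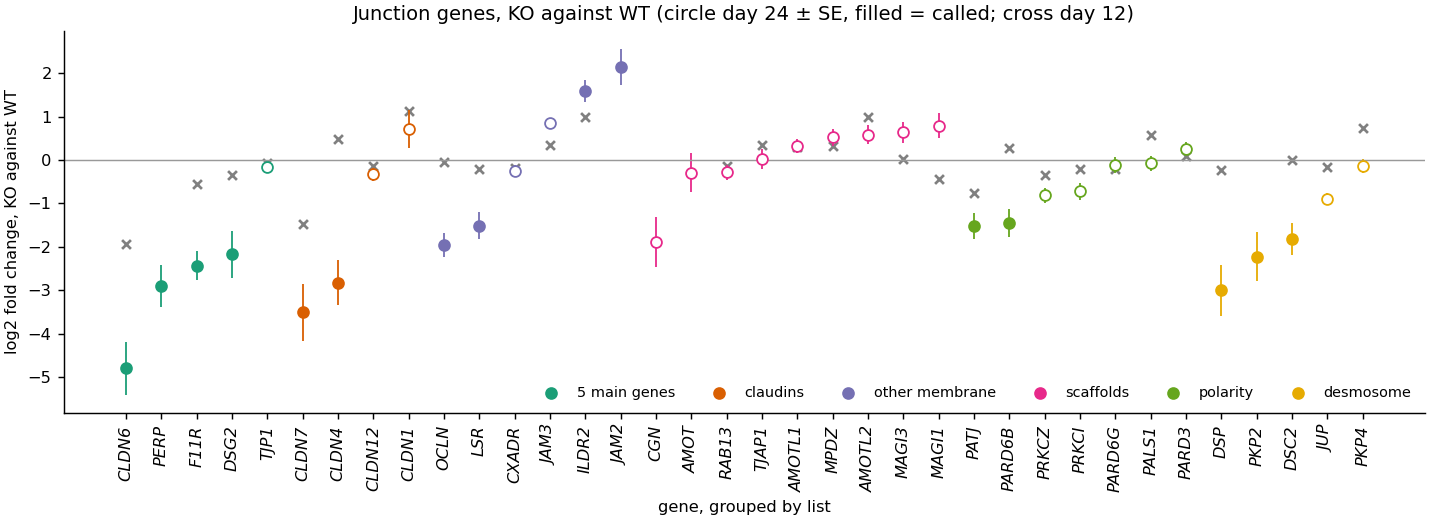
Log2 fold change of KO against WT (vertical axis) for the 5 main genes and the 31 tested genes of the 5 junction lists, with circles for day 24 (± SE, filled where called) and crosses for day 12. The 9 list genes called below 0 are claudins, other membrane proteins, polarity and desmosome genes, and *JAM2* and *ILDR2* are the 2 called above 0.

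Of 4 tested claudins, 2 were called lower, against 3.79% of all genes tested. *CLDN7*, a claudin of simple epithelia, scored 22 and 30 in WT, 1 and 0 for KO#2 and 4 and 2 for KO#10 (−3.51, adjusted *p* = 0.0247). *CLDN4*, which limits sodium passage in epithelia, scored 20 and 30 in WT, 2 and 1 for KO#2 and 6 and 3 for KO#10 (−2.83, adjusted *p* = 0.0234). Both had WT above all libraries labelled KO, as for 21.8% of all genes tested. *CLDN1* (0.72) and *CLDN12* (−0.32) were not called, and *CLDN5* was not among the genes that had values.

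The 6 other membrane proteins split, with 2 called lower, 2 higher and 2 not called. Of all genes tested, 3.79% were called lower and 4.22% higher. *OCLN*, which encodes occludin, scored 28 and 28 in WT, 7 and 5 for KO#2 and 10 and 5 for KO#10 (−1.95, adjusted *p* = 0.0196), and *LSR*, the lipoprotein receptor that builds 3-cell contacts, differed by −1.51 (adjusted *p* = 0.0303). *JAM2*, a relative of *F11R*, scored 2 and 2 in WT, 13 and 15 for KO#2 and 6 and 19 for KO#10 (2.15, adjusted *p* = 0.027). Its direction was the opposite of that of *F11R*. *ILDR2*, a relative of *LSR*, scored 7 and 4 in WT, 20 and 14 for KO#2 and 22 and 17 for KO#10 (1.59, adjusted *p* = 0.0206). *JAM3* passed the adjusted *p* (0.0196) but differed by less than 2-fold (0.85).

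Of 9 other scaffold genes reported here, none was called by limma at day 24, with 5 at an unadjusted *p* under 0.05, 1 of them lower and 4 higher. Their median was 0.32. Of 7 tested polarity genes, *PARD6B* (−1.45, adjusted *p* = 0.0351) and *PATJ* (−1.52, adjusted *p* = 0.0283), both of apical complexes, were called lower, and 5 were not called. The share called lower was 3.79% over all genes tested.

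The desmosome list held 5 tested genes, of which 3 were called lower (median −1.82), against 3.79% of all genes tested. As given above, these 3 passed the filter only because WT was high. *DSP*, which encodes desmoplakin, scored 40 and 46 in WT, 2 and 4 for KO#2 and 14 and 3 for KO#10 (−3.0, adjusted *p* = 0.0274). *PKP2*, a plakophilin of simple epithelia and heart, scored 27 and 27 in WT, 3 and 3 for KO#2 and 15 and 4 for KO#10 (−2.23, adjusted *p* = 0.0445). *DSC2*, the desmocollin partner of desmoglein-2, scored 21 and 23 in WT, 4 and 4 for KO#2 and 11 and 5 for KO#10 (−1.82, adjusted *p* = 0.0303). As for *DSG2*, KO#10 replicate 1 was the library labelled KO nearest to WT for all 3. *JUP*, which encodes plakoglobin and also serves adherens junctions, passed the adjusted *p* (0.0205) with less than 2-fold (−0.90), and *PKP4*, a plakophilin relative found at several junctions, did not pass (−0.13, adjusted *p* = 0.564).

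On day 12 none of the 27 genes tested from these lists was called (median −0.000495), at the background of 0.0900% (0.799% with the block) given above. Between the days in WT, *PKP2* (2.11), *AMOT* (2.10) and *DSC2* (1.35) were called higher and *ILDR2* (−1.84) lower, 4 of 31 genes against 15.1% of all genes tested. In the libraries labelled KO, 7 genes were called lower over time and 2 higher, against 11.5% of all genes in either direction. The 7 were *CLDN4*, *CLDN7*, *OCLN*, *LSR*, *ILDR2*, *PARD6B* and *DSP*, with log2 fold changes from −1.96 to −1.02, and *JAM2* (2.44) and *AMOT* (1.42) were higher. The change of the KO difference between the days was called for *CLDN4* (−3.31, adjusted *p* = 0.0328), *OCLN* (−1.90, 0.0233) and *PARD6B* (−1.74, 0.0398), where 1.31% of all genes were called in either direction.

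Markers of several cell types moved with the junction genes. Of 10 simple epithelium genes tested at day 24, all 10 were called lower in the libraries labelled KO, against 3.79% of all genes, and 6 of them reached a score of 10 only in WT. *EPCAM* scored 40 and 85 in WT and 1 to 6 in KO, *CDH1*, which encodes E-cadherin, 31 and 55 against 1 to 5, and *KRT8* 250 and 316 against 20 to 122. The 10 genes summed to 756 and 1018 in WT and to 65 to 293 in KO, with up to 2 of them at 0 in a library labelled KO. On day 12 the sums were closer, 351 and 369 against 222 to 336, and none was called.

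The pluripotency list had 8 of 8 tested genes called lower at day 24, against 3.79% of all genes tested. Its 9 genes summed to 519 and 992 in WT and to 60 to 86 in KO. *POU5F1*, *TDGF1*, *L1TD1* and *ZFP42* reached a score of 10 only in WT on that day, so that they were tested only because WT was high. At day 12, 3 of 8 were called lower (sums of 929 and 1149 against 563 to 603), where 0.0900% of all genes were called in either direction. *POU5F1*, a defining gene of pluripotent cells, scored 107 and 136 in WT and 16 to 19 in KO on day 12, and 75 and 236 against 3 to 6 on day 24. Endoderm and yolk sac genes summed to 6612 and 6748 in WT at day 24 and to 33 to 1185 in KO. *AFP* was at the highest score of the scale in both WT libraries of that day. Of 7 genes tested, 4 were called lower, against 3.79% of all genes, and *APOB* among them reached a score of 10 only in WT. *SERPINA1* and *RBP4* reached it in both WT libraries and in 1 library labelled KO, so that they too needed WT to be tested. On day 12 no library summed to more than 20.

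Endothelium genes (2 of 2 called lower, 51 and 54 against 10 to 29) and choroid plexus genes (1 of 2, 60 and 81 against 26 to 72) were also lower in part. Of all genes tested, 3.79% were called lower, and the endothelium gene *KDR* reached a score of 10 only in WT. The choroid plexus gene *AQP1* reached it in both WT libraries and in 1 library labelled KO, so that it too needed WT to be tested. None of the 6 mesenchyme genes tested at day 24 was called by limma, with 2 at an unadjusted *p* under 0.05, yet all 6 had log2 fold changes below 0 (median −1.89). Their list summed to 2447 and 2074 in WT, to 173 and 139 in KO#2, and to 2908 and 156 in KO#10, so that 3 of the 4 libraries labelled KO were far below WT and KO#10 replicate 1 was above it. Neither of the 2 surface ectoderm genes tested was called. Neural markers moved the other way. Of 10 neuron genes 4 were called higher at day 24, against 4.22% of all genes. Their list summed to 178 and 352 in WT and to 434 to 2100 in KO. Of 9 neural progenitor genes 3 were called higher, with sums of 575 and 815 against 1238 to 1553. Among these calls, *ELAVL4* and *SOX1* reached a score of 10 only in the libraries labelled KO, so that they were tested only because that group was high. The part that any of these cell types had in the lower junction scores was not tested.

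**Figure D4:**
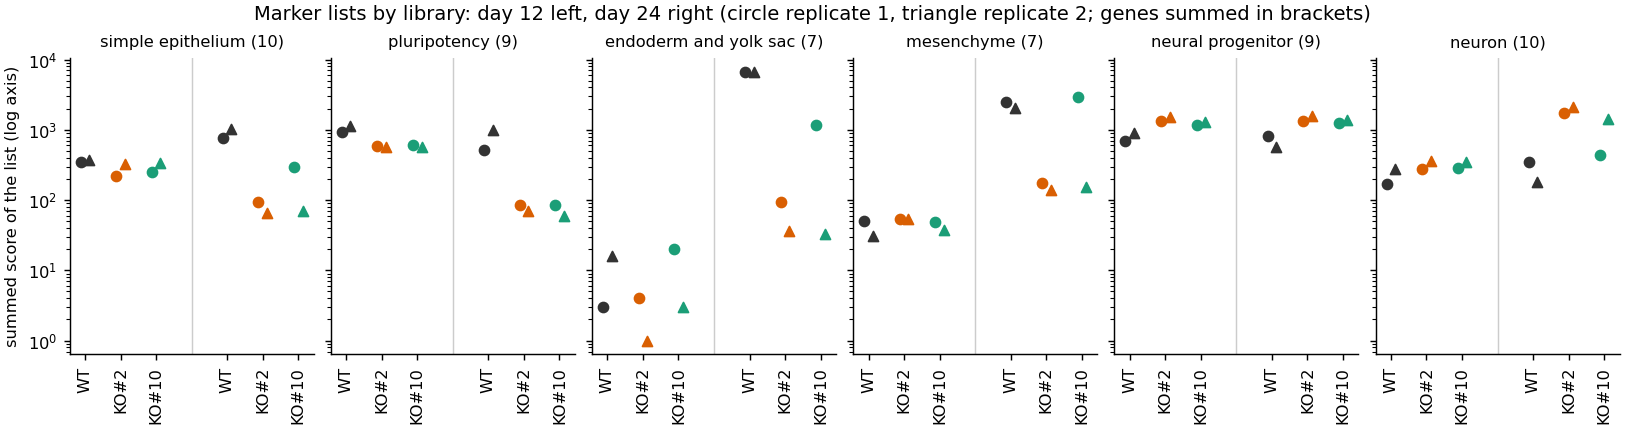
Summed score of 6 marker lists in each of the 12 libraries (vertical axis, log scale), by line and day, with circles for replicate 1 and triangles for replicate 2. Simple epithelium sums are 756 and 1018 in WT and 65 to 293 in the libraries labelled KO at day 24, and KO#10 replicate 1 of that day reaches 2908 for mesenchyme and 1185 for endoderm and yolk sac.

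Some reads of these genes could belong to a neighbor. *F11R* shared 1853 exonic bases with *AL591806.3* on the same strand, *DSG2* shared 171 with its antisense gene *DSG2-AS1*, and *CLDN6* shared 40 with *TNFRSF12A* on the other strand, which scored 1 to 23. *TJP1* and *PERP* shared none. Strand cannot separate *F11R* from its neighbor, and for *DSG2* and *CLDN6* the sources used here do not give whether the counting used the strand. The scores of these 3 are less certain in this respect.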

How the data were processed

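Total RNA of pooled COs was sequenced in 12 libraries (paired-end, dUTP strand-marked protocol). The authors deposited 1 whole-number score per gene and library. The scores were normalized by the authors so that all libraries share 1 distribution, and the method is not given in the sources used here. The submitters' processing notes name bcl2fastq, Bowtie2, RSEM and the build mm10, although identifiers and intervals are human. Column totals (473637 to 483149) reflect the normalization, so neither the depth nor a counting interval can be derived from them.

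Groups and replicate numbers came from the labels. The study mentions separate batches in general but does not tie these libraries to batches or cultures, so that *p*-values measure only the spread between these libraries. The 5 genes, the lists and the rule for named genes (the 5, *JUN*, called list genes and some fixed ones, the first 3 genes of a marker list, and the 3 closest genes by *r*) were chosen with earlier results of these data known. The result of 1 list gene is not reported here.

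Genes that scored 10 or more in 2 or more libraries of a fit were tested on log2(score + 1) with limma 3.58.1 (lmFit, eBayes with trend; R 4.3.3) and Benjamini-Hochberg adjustment over all genes tested, after a trial on simulated data. A fold change on this scale understates that of low scores. KO against WT used the 6 libraries of a day, the clones a fit with 3 groups, and time and the interaction all 12 libraries in 4 groups. Replicates were not copies of each other (11.1% to 12.5% identical scores, and 10.1% in KO#10 at day 24). Deviations of same-numbered libraries from their group means correlated at day 12 (*r* of 0.376 to 0.556 over the 3 pairs of lines), so numbers were taken to pair that day, but not at day 24 (−0.09 to 0.33). Alternatives were other filters, pseudocounts of 0.1 and 5, no trend, centring, the replicate block, an unadjusted *p*, separate clones, other sets of libraries, and each library left out. Motifs were searched with Python 3.11.15 and plots made with matplotlib 3.10.9.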

Additional observations from a re-analysis of the deposited data

Results flagged for a closer look

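*CLDN6* scored 8 in KO#10 replicate 1 on day 24, against 1, 2 and 1 in the other 3 libraries labelled KO. The gap of this library to the next was 0.857 of the range of the 4, above Dixon's 95% critical value for 4 samples. Chance gives such a gap in about 1 group in 20. It is the library that also scored highest among those labelled KO for *DSG2* (17), *DSP* (14) and *PKP2* (15).

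The difference between KO and WT was larger on day 24 than on day 12 for *F11R* (interaction −1.88, adjusted *p* = 0.0398) and *PERP* (−2.53, adjusted *p* = 0.0328), by limma over the 12 libraries. For *F11R* and *PERP*, all 4 libraries labelled KO of day 24 were below all 4 of day 12, as for 15.6% of all genes tested. For the same genes, both WT libraries of day 24 were above both of day 12, as for 32.1%. Libraries of the 2 days were separate and not paired. *PERP* reached the filter score only in WT on day 24 (15 and 23), against 1 to 3 in the libraries labelled KO. Its interaction was thus tested only because that WT group was high, and is a description. Both calls were also lost when most of the libraries labelled KO were left out singly, as given above.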

How the results depend on the processing

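Over 593 alternative values of the 5 genes, 509 kept direction and side of the threshold, 63 no longer passed, 12 newly passed and 9 reversed. These counts include the fits over time with the replicate block, which compared replicate 1 levels. Of the 4 genes called at day 24, 0 to 4 were called when a library was left out, and 0 to 630 of all genes were called lower in place of 352. Leave-one-out counts ranged from 0 to 12 for the junction lists (11), 0 to 2 for time in WT (1), 0 to 4 for the interaction (2) and 0 to 4 for KO#2 (4). A lone library left in a group is assumed to vary like the others, and these fits kept the genes tested before.

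With scores of at least 20 required, 205 genes were called lower at day 24, 5 list genes, 0 of the 5 for time in WT and 1 for the interaction. At an unadjusted *p*, 1 of the 5 and 1 list gene passed at day 12, and 4 for the interaction. Time in WT gave 0 with a pseudocount of 5 or a pseudocount of 0.1, and 2 in WT libraries alone. The interaction gave 1 with a pseudocount of 0.1 or separate clones. KO#2 gave 2 with the replicate block, the pairing that also ended the call of *DSG2* at day 24 (0.0581). It changed no other call of the 5 between lines or for the interaction. Over time the block compared replicate 1 levels and is not used. At day 12 the block raised the calls over all genes from 8 to 71. *PERP* over time in KO was under 2-fold with a pseudocount of 5 (−0.61). KO#10 gave 1 with a pseudocount of 5 and 3 with all 12 libraries in 1 fit. The causes were not tested.

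The reversed values were of genes not called and came from leaving out 1 library. Their leave-one-out ranges were −0.17 to 0.0466 (*TJP1*, day 12), −0.16 to 0.45 (*CLDN6*, time in WT), −0.20 to 0.0148 (*TJP1*, interaction) and, for KO#10 against KO#2, −0.29 to 1.88 (*CLDN6*), −0.0614 to 0.94 (*F11R*), −0.0198 to 0.0582 (*TJP1*) and −0.29 to 0.71 (*PERP*). Depth is unknown, and scores under 10 move in steps that are large on a log scale.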
